A study of Mus musculus with 12 samples.

Results

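Mitochondria oxidize NADH and succinate through an electron transport chain and use the resulting proton gradient to make ATP. Complex I takes electrons from NADH, complex II from succinate, complex III passes them to cytochrome c, and complex V, the ATP synthase, lets protons flow back and phosphorylates ADP. Most subunits of these complexes are encoded in the nucleus and imported, while a few hydrophobic ones of complexes I, III and V are encoded in mitochondrial DNA. Skeletal muscle holds many mitochondria, and oxidative supply of ATP is a known feature of its maturation after birth.

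The genes described here are the nuclear genes for subunits of complexes I, II, III and V and for cytochrome c. They were chosen by symbol among protein-coding mouse genes: *Ndufa*, *Ndufb*, *Ndufc*, *Ndufs* or *Ndufv* followed by a digit, *Sdha* to *Sdhd*, *Uqcr*, *Cyc1*, *Cycs* and *Atp5*. The rule found 72 of the 55450 genes in the count table, under 71 symbols. Of these, 37 belong to complex I, 4 to complex II, 9 to complex III and 19 to complex V, 1 encodes cytochrome c, and 2 form the pair *Ndufa4* and *Ndufa4l2*. The rule reaches past subunits of these complexes in 3 genes: the *Ndufa4* protein is now placed in complex IV, *Ndufa4l2* is its paralog, and *Atp5if1* encodes the inhibitor of the ATP synthase and no subunit. *Ndufb11b* and a second identifier of *Atp5po* had 0 counts in all 12 libraries. The filter on low counts left the other 70 genes to test, each with at least 235 counts in every library.

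RNA was taken from pieces of tibialis anterior (TA) muscle of WT mice of genetic background 129Pas at E18.5, 2 weeks and 7 weeks, with 4 mice at each age and no treatment, and polyadenylated RNA was sequenced from stranded libraries. E18.5 lies shortly before birth, 2 wks before weaning, and 7 wks in the young adult. The question was how the level of each gene differs between these ages, in the interval from E18.5 to 2 wks and in the interval from 2 to 7 wks. The samples are whole muscle pieces, so fewer cells of a type and less RNA per cell cannot be told apart.

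Library totals ran from 63018968 to 123449246 counts. Markers of muscle fibres (*Acta1*, *Ckm*, *Mylpf*, *Tnnt3*, *Des*, *Ryr1*) were detected at every age, with summed levels of 9315 to 18756 CPM (counts scaled to library size with TMM factors) at E18.5, 105581 to 127372 in mice of 2 wks and 93666 to 140973 in mice of 7 wks. In edgeR's quasi-likelihood test, 6 of 6 rose from E18.5 to 2 wks. The E18.5 libraries 3 and 4 stood apart from libraries 1 and 2 in markers of brown adipocytes, which are themselves rich in mitochondria: *Ucp1*, the uncoupling protein of brown fat, was at 224 and 923 CPM there, against 0.305 and 0 CPM in libraries 1 and 2 and at most 11.6 CPM at the later ages. The summed level of the 4 brown adipocyte markers was 10.6 to 1327 CPM at E18.5, 6.46 to 21.1 in mice of 2 wks and 4.15 to 8.79 in mice of 7 wks, and that of 6 white adipocyte markers was 178 to 2692, 421 to 486 and 311 to 414. For this reason the counts of changed genes are also given below without E18.5 libraries 3 and 4, a choice made after seeing the data. Libraries 1 and 2, which are then kept, were not alike either. Library 2 had the highest sums of its age for muscle fibre (18756 CPM), epidermis (28.1) and cartilage and bone (116) markers. In library 1 these were 9315, 4.52 and 37.0 CPM. Among markers of other cells, 4 of 6 of fibroblasts, 2 of 7 of red blood cells, 2 of 5 of macrophages, 2 of 3 of satellite cells, 2 of 3 tested of epidermis and 4 of 5 tested of cartilage and bone fell from E18.5 to 2 wks, 3 of 4 of endothelial cells and 2 of 4 of Schwann cells rose, and *Lor* and *Matn1* were at 0 counts at 2 wks. Of all genes tested, 34.2% were called lower and 31.5% higher in this comparison, so the counts for red blood cells and macrophages were near the share over all genes. Their part in the results was not tested.

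From E18.5 to 2 wks nearly all of these genes rose together. Of the 70 genes tested, 68 rose and 0 fell by the quasi-likelihood test of edgeR, with p-values adjusted by Benjamini and Hochberg's method over all 19276 genes tested, of which 31.5% were called higher and 34.2% lower. For 66 of 70 every 2 wks library was above every E18.5 library, which held for 28.9% of all genes. Their median change was 2.19 on the log2 scale, or 4.56-fold, with a range of 0.13 to 4.76, and the median over all genes tested was -0.09. The exceptions were *Atp5if1* and *Ndufb2*. Without the E18.5 libraries that held brown adipocyte markers, 67 rose (27.9% of all genes were then called higher), 0 fell and the median was 2.43, and *Ndufa4l2* was then the third gene not called.

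From 2 to 7 wks the group stayed near its level of 2 wks with TMM scaling. Here 0 of 70 rose and 1, *Atp5if1*, fell, beside 13.5% and 13.9% of all genes called higher and lower. Their median change was -0.02 (log2) with a range of -0.80 to 0.63, and 61 of 70 genes changed by less than 0.5 on the log2 scale in either direction. The libraries did not overlap for 6 genes that were higher at 7 wks and 3 that were lower, against 17.3% and 16.4% of all genes. The standard errors of these log2 changes ran from 0.17 to 0.46, with a median of 0.24, so a small change in a single gene was not detectable. Between E18.5 and 7 wks, 67 of 70 were higher and 1, *Atp5if1*, was lower, against 34.3% and 37.1% of all genes. The change to 2 wks exceeded the later change in 65 of 70 genes by edgeR's test of the difference, which called 21.6% of all genes in that direction. The genes with no such call were *Atp5if1*, *Ndufs1*, *Sdha*, *Sdhd* and *Uqcrc2*.

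**Figure D1:**
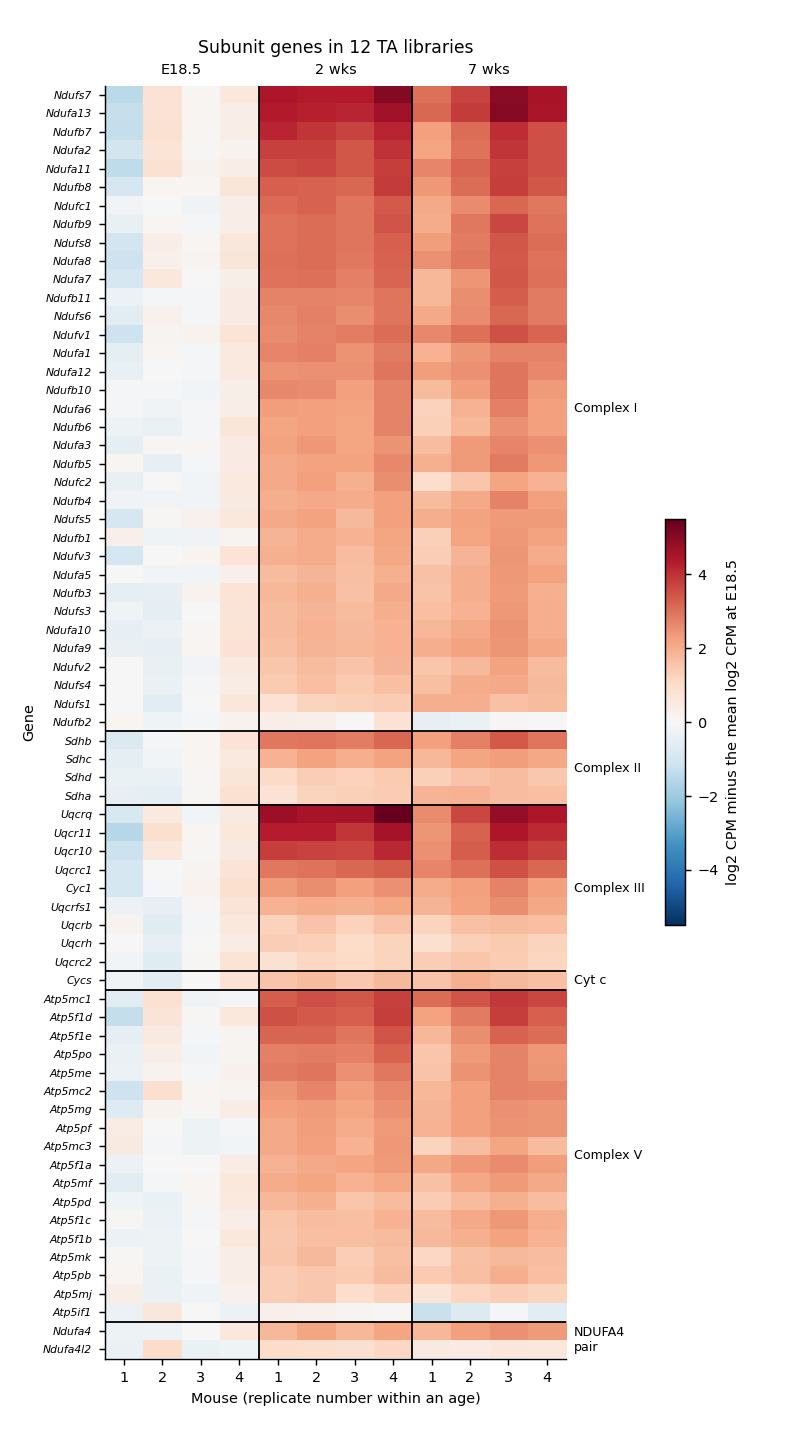
Heat map of 69 genes tested (rows, by complex and then by their change to 2 wks) in the 12 TA libraries (columns). Colour is log2 CPM minus the mean log2 CPM of the gene at E18.5. The 2 wks and 7 wks columns are red in nearly every row, the rows of *Atp5if1* and *Ndufb2* stay pale or turn blue, and at 7 wks library 3 is the darkest and library 1 the palest in most rows.

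The heat map also shows that libraries of an age differed from each other, with most of these genes moving together. At 7 wks library 3 was the highest of the 4 in 65 of 70 genes and library 1 the lowest in 66 of 70. At 2 wks library 4 was the highest in 60 and library 3 the lowest in 45, and at E18.5 library 4 was the highest in 50 and library 1 the lowest in 41. The median over the genes of the deviation from the age mean (log2 CPM) was -0.44, -0.03, 0.39 and 0.10 for libraries 1 to 4 at 7 wks and -0.40, -0.06, 0.01 and 0.51 at E18.5. The median SD of a gene within an age (log2 CPM) was 0.48 before birth, then 0.18 and 0.35 at the later ages, against 0.31, 0.16 and 0.25 over 11832 genes whose mean log2 CPM was at least 1. In muscle fibre markers, library 3 had the highest sum at 7 wks (140973 CPM) and library 1 the lowest (93666 CPM). At 2 wks library 4 had the highest (127372 CPM), but library 3 was not the lowest (119389 CPM). At E18.5 library 4 held the most *Ucp1* (923 CPM), while library 2 had the highest muscle fibre sum (18756 CPM). Trends over GC content, given below, also differed between libraries. The part of these differences was not tested.

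In complex I, 35 of 36 genes rose from E18.5 to 2 wks, with a median log2 fold change of 2.33, and 0 of 36 were called from 2 to 7 wks (median -0.04). Of all genes tested, 31.5% were called higher in the first interval, and 13.5% higher and 13.9% lower in the later one. The matrix arm, which holds the flavin and the iron-sulfur clusters, had 16 of 16 genes that rose (median 2.21, range 1.14 to 4.38). The membrane arm, which pumps protons, had 19 of 20 (median 2.42, range 0.38 to 4.20). The 7 nuclear core subunits, those conserved from bacteria, all rose.

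The core subunits covered nearly the whole range of the complex. *Ndufs7* (ENSMUSG00000020153, chr10:80084941-80095049 on the plus strand of GRCm39) encodes the subunit with the last iron-sulfur cluster before ubiquinone. It was at 4.02, 19.1, 12.03 and 16.3 CPM in the E18.5 libraries, at 245, 227, 226 and 371 CPM at 2 wks and at 89.9, 147, 350 and 259 CPM at 7 wks. Every later library was above every E18.5 library, while those of 2 and 7 wks overlapped. Its log2 fold change to 2 wks was 4.38 ± 0.50 (SE), or 20.8-fold (edgeR, adjusted p = 6.71e-06), and to 7 wks it was -0.34 ± 0.44 (adjusted p = 0.60). *Ndufs1*, the largest subunit of the matrix arm, rose the least of the genes that rose in complex I. Its levels were 309, 196, 305 and 471 CPM at E18.5, 536, 723, 761 and 809 CPM at 2 wks and 1213, 1218, 936 and 1010 CPM at 7 wks. The 3 ages did not overlap in either step. The log2 fold change was 1.14 ± 0.24 (SE) to 2 wks (edgeR, adjusted p = 0.00078) and 0.63 ± 0.23 to 7 wks, the highest later change of the 70 genes, which missed the threshold (adjusted p = 0.061) and passed it without E18.5 library 2 or without library 4, with DESeq2 and with only the 8 libraries compared. With scaling to the total count the first change of *Ndufs1* was 0.21 and not called (adjusted p = 0.41).

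Among other core subunits, the changes to 2 wks were 2.95 (*Ndufs8*), 2.67 (*Ndufv1*, which binds NADH and the flavin), 1.78 (*Ndufs3*) and 1.64 (*Ndufv2*) on the log2 scale, each a rise by edgeR.

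Accessory subunits hold complex I together and are needed for its assembly. The largest rises among them on the log2 scale were those of *Ndufa13* (4.20 ± 0.45, from a mean of 21.8 to 401 CPM), *Ndufb7* (3.83 ± 0.44), *Ndufa2* (3.62 ± 0.39), *Ndufa11* (3.42 ± 0.38) and *Ndufb8* (3.31 ± 0.35). *Ndufa13*, also known as GRIM-19, sits where the arms meet. The smallest rises called were those of *Ndufs4* (1.53 ± 0.18), whose loss in mice gives a widely used model of Leigh syndrome, *Ndufa9* (1.72 ± 0.24) and *Ndufa10* (1.77 ± 0.24). The 7 wks libraries of *Ndufa9*, *Ndufs1* and *Ndufs4*, each in the matrix arm, were all above those of 2 wks, and none of these changes was called by edgeR.

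*Ndufb2*, a small subunit of the membrane arm, was the gene of the complex not called to 2 wks and was singled out after its values were seen. It was at 6.83, 5.40, 6.001 and 7.36 CPM at E18.5, at 8.15, 7.75, 6.45 and 11.01 CPM at 2 wks and at 4.71, 4.999, 6.74 and 6.33 CPM at 7 wks. The ages overlapped in all 3 comparisons. Its log2 fold changes were 0.38 ± 0.20 (SE; edgeR, adjusted p = 0.100) and -0.55 ± 0.20 (adjusted p = 0.052). It also had the lowest level per length of the 70 genes, 1.30 CPM per kb at 7 wks. Its annotated transcript is 4389 bases long, and that length enters the level per kb and the shares that follow. Stretches of the transcript are repeated nearly identically at 13 other places of the genome, covering 10.1% of it. Another annotated exon lies antisense to 12.1% of it. How the counting treated such reads is not given in the sources used here, and how many reads of this gene were lost to the copies was not tested. Its calls depended on the processing. With scaling to the total count its first change was -0.55, a fall, and with the GC trend removed it was 0.79, a rise (edgeR, adjusted p = 0.0053). The later change was called as a fall with the GC trend removed (-0.75), the length trend removed (-0.63) and total-count scaling (-0.90), and also with upper-quartile scaling, DESeq2, a minimum of 10 counts and only the 8 libraries compared.

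Complex II, succinate dehydrogenase, has only nuclear subunits. Of its 4 genes 4 rose to 2 wks, beside 31.5% of all genes, with a median log2 fold change of 1.63. Later 0 of 4 were called (median 0.13), beside 13.5% and 13.9% of all genes called higher and lower. With only 4 genes, that later count says little about the complex. *Sdhb*, the iron-sulfur subunit, was at 46.9, 78.0, 86.7 and 138 CPM at E18.5, at 607, 624, 572 and 725 CPM at 2 wks and at 392, 562, 851 and 627 CPM at 7 wks. It rose by 2.86 ± 0.31 on the log2 scale, 7.24-fold, with no overlap (edgeR, adjusted p = 3.79e-06). *Sdhc* and *Sdhd*, which anchor the enzyme in the membrane, rose by 2.05 ± 0.21 and 1.22 ± 0.22. *Sdhd* was at 142, 139, 191 and 284 CPM at E18.5, at 372, 461, 433 and 492 CPM at 2 wks and at 451, 542, 588 and 511 CPM at 7 wks, so its ages stood apart in the first step and overlapped in the second. Its first change was not called with scaling to the total count (0.28) or with the length trend removed (0.44). *Sdha*, the flavoprotein that oxidizes succinate, was named after its values were seen. It was at 337, 326, 481 and 806 CPM at E18.5, at 800, 1075, 1135 and 1207 CPM at 2 wks and at 1639, 1686, 1481 and 1445 CPM at 7 wks. The E18.5 library with the most *Ucp1* overlapped the 2 wks libraries, and all 7 wks libraries were above those of 2 wks. Its log2 changes were 1.11 ± 0.26 (SE; edgeR, adjusted p = 0.0020) and 0.57 ± 0.26 (adjusted p = 0.12). With scaling to the total count the first was 0.17 and not called (adjusted p = 0.53). Without the E18.5 libraries 3 and 4 its first change was 1.67 and its later rise was called, as was that of *Ndufs1*.

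Changes in complex III were spread widely, with an SD over its genes of 1.36 on the log2 scale against 0.84 in complex I, while the range was wider in complex I. All 9 genes rose to 2 wks, beside 31.5% of all genes, with a median log2 fold change of 2.28. Later 0 of 9 were called (median -0.02), beside 13.5% and 13.9% of all genes called higher and lower. *Uqcrq* (ENSMUSG00000044894, chr11:53318749-53322047 on the minus strand of GRCm39), a small subunit that binds near cytochrome b, had the largest rise of the 70 genes. It was at 6.06, 16.5, 10.1 and 16.2 CPM at E18.5, at 292, 264, 270 and 497 CPM at 2 wks and at 68.5, 145, 319 and 244 CPM at 7 wks. Library 4 was high among those of 2 wks, library 1 low among those of 7 wks, and all 8 were above E18.5. The log2 fold change was 4.76 ± 0.48 (SE), 27.1-fold (edgeR, adjusted p = 2.54e-06), and later -0.77 ± 0.42 (adjusted p = 0.19). The next largest rises of the complex were those of *Uqcr11* with 4.06 ± 0.51 and *Uqcr10* with 3.704 ± 0.39.

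The large core proteins of complex III differed from each other. *Uqcrc2* was at 451, 315, 517 and 833 CPM at E18.5, at 882, 1086, 1052 and 1151 CPM at 2 wks and at 1281, 1421, 1313 and 1123 CPM at 7 wks. It rose by 0.98 ± 0.24 (SE) on the log2 scale, 1.97-fold, with no overlap (edgeR, adjusted p = 0.0029), but by 0.047 with scaling to the total count, where it was not called (adjusted p = 0.86). *Uqcrc1*, its partner, was at 81.5, 157, 172 and 259 CPM at E18.5 and at 1140, 1228, 1368 and 1556 CPM at 2 wks, a rise of 2.98 ± 0.31 (edgeR, adjusted p = 2.63e-06). *Cyc1* (cytochrome c1) and *Uqcrfs1* (the Rieske protein), which carry electrons, rose by 2.28 ± 0.30 and 1.92 ± 0.24, while *Uqcrb* and *Uqcrh* rose by 1.35 ± 0.23 and 1.21 ± 0.19. *Cycs*, the mobile cytochrome c, rose by 1.55 ± 0.25, from a mean of 254 to 744 CPM, and was at 793 CPM at 7 wks.

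**Figure D2:**
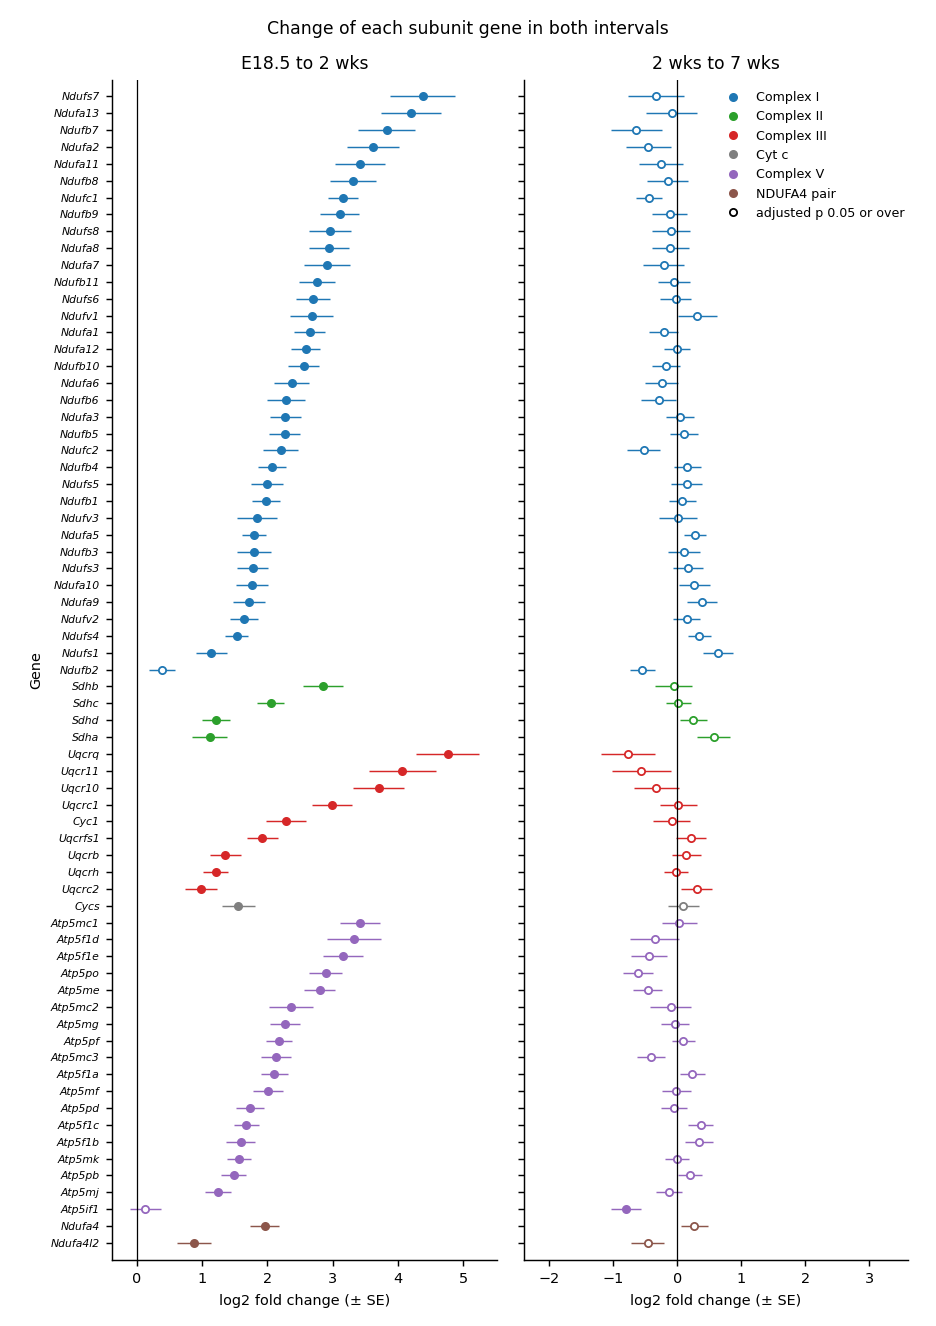
Log2 fold change with its standard error (edgeR, 4 mice an age) of each gene, from E18.5 to 2 wks (left) and from 2 to 7 wks (right), coloured by complex. Filled points have an adjusted p below 0.05. On the left 67 of 69 points are filled and to the right of 0, and on the right only *Atp5if1* is filled, at -0.80.

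Complex V makes ATP in a soluble F1 head, driven by a ring of c subunits that turns in the membrane. Of its 18 genes tested, 17 rose to 2 wks and 0 fell, with a median log2 fold change of 2.12. Of all genes, 31.5% were called higher and 34.2% lower in this interval. Later 1 of 18 was called (median -0.04), beside 13.5% and 13.9% of all genes called higher and lower. Of all 70 genes the head's *Atp5f1b*, the catalytic beta subunit, had the highest level per length, with means of 886, 2663 and 3358 CPM per kb at the 3 ages. Its 7 wks libraries (5623 to 7624 CPM) were all above those of 2 wks (4567 to 5582 CPM), with a log2 change of 0.33 ± 0.22 (SE) that edgeR did not call (adjusted p = 0.27). In the head, the small subunits *Atp5f1d* (3.32 ± 0.41) and *Atp5f1e* (3.16 ± 0.31) rose more than *Atp5f1a* (2.10 ± 0.21), *Atp5f1c* (1.68 ± 0.19) and *Atp5f1b* (1.59 ± 0.22) on the log2 scale, a difference that was not tested. In the stalk that holds the head still, *Atp5po* rose by 2.89 ± 0.25, *Atp5pf* by 2.18 ± 0.19, *Atp5pd* by 1.73 ± 0.21 and *Atp5pb* by 1.49 ± 0.19. *Atp5po* was also at 171 to 240 CPM at 2 wks and 71.7 to 166 CPM at 7 wks without overlap, a change of -0.62 ± 0.24 that edgeR did not call (adjusted p = 0.066) but did call with a replicate block, upper-quartile or total-count scaling, a minimum of 10 counts, the GC or length trend removed, or without 7 wks library 3. The remaining membrane subunits rose by 2.80 ± 0.24 (*Atp5me*), 2.27 ± 0.23 (*Atp5mg*), 2.01 ± 0.23 (*Atp5mf*), 1.56 ± 0.19 (*Atp5mk*) and 1.24 ± 0.20 (*Atp5mj*). *Atp5mj*, the smallest of these, was at 192, 115, 125 and 177 CPM at E18.5, at 376, 418, 295 and 354 CPM at 2 wks and at 248, 339, 384 and 349 CPM at 7 wks, with no overlap in the first step.

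**Figure D3:**
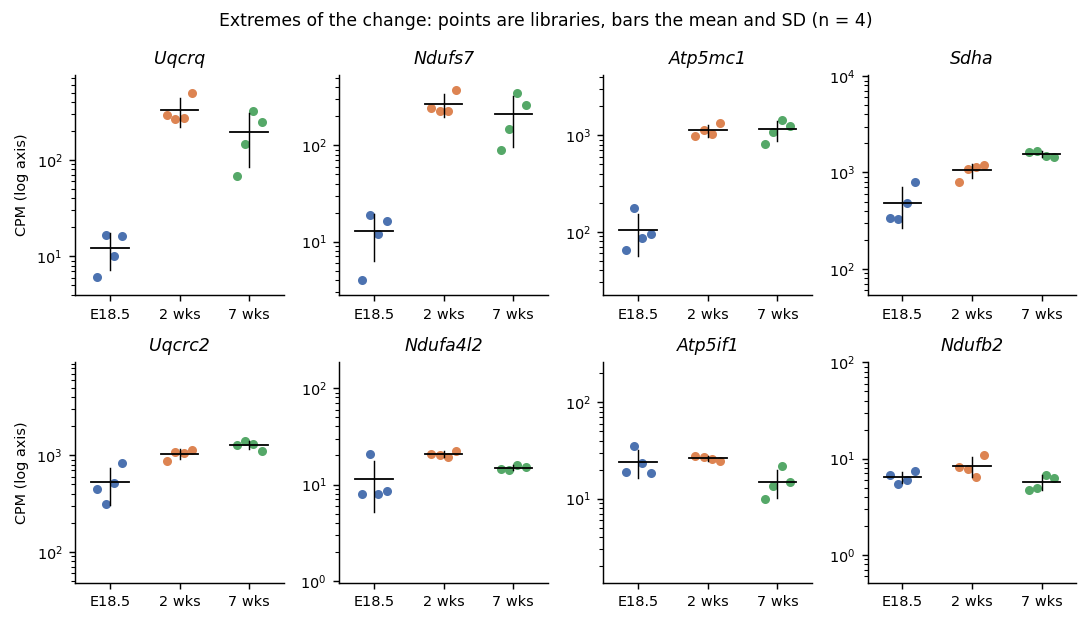
CPM (log axis) of 8 genes at the extremes of the change, with each of the 4 libraries of an age as a point and the mean and SD as bars. *Uqcrq*, *Ndufs7* and *Atp5mc1* rise far above their E18.5 points, *Sdha* and *Uqcrc2* rise little, and *Atp5if1* and *Ndufb2* at 2 wks overlap with E18.5.

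*Atp5if1* encodes a small protein that binds the head and blocks hydrolysis of ATP when the proton gradient fails. It was at 18.7, 35.1, 23.3 and 18.6 CPM at E18.5, at 27.7, 26.9, 25.6 and 24.4 CPM at 2 wks and at 10.01, 13.6, 21.7 and 14.9 CPM at 7 wks. The 2 wks libraries lay within the range of E18.5, and all 7 wks libraries were below those of 2 wks. The log2 fold change was 0.13 ± 0.24 (SE; edgeR, adjusted p = 0.65) to 2 wks, -0.80 ± 0.24 from 2 to 7 wks (adjusted p = 0.024) and -0.67 ± 0.24 from E18.5 to 7 wks (adjusted p = 0.021). The later call was lost without 2 wks library 1 or 2 or 7 wks library 1, 2 or 4, with log2 changes of -1.03 to -0.64 over all libraries left out in turn, and the call between E18.5 and 7 wks was lost without E18.5 library 2 or 7 wks library 1 or 2. With the trend over GC content removed, it fell by 0.43 on the log2 scale already to 2 wks (edgeR, adjusted p = 0.045). The annotation places 59.6% of its transcript antisense to other exons.

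The c subunit of the ring is encoded by *Atp5mc1*, *Atp5mc2* and *Atp5mc3*, whose precursors differ in the targeting sequence that is cut off, so that the mature proteins are alike. *Atp5mc1* was at 64.3, 176, 85.4 and 94.6 CPM at E18.5, at 984, 1135, 1041 and 1336 CPM at 2 wks and at 818, 1081, 1451 and 1253 CPM at 7 wks. *Atp5mc2* was at 13.1, 51.9, 30.8 and 32.1 CPM, then at 153, 183, 141 and 180 CPM, and at 7 wks at 101, 136, 192 and 182 CPM. *Atp5mc3* was at 362, 240, 207 and 231 CPM, then at 1064, 1218, 959 and 1305 CPM, and at 7 wks at 597, 834, 1150 and 836 CPM. All of them rose to 2 wks without overlap, by 3.42 ± 0.30 (SE), 2.36 ± 0.33 and 2.13 ± 0.23 on the log2 scale, and overlapped between 2 and 7 wks.

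Their proportions shifted with age. Of the counts on the 3 genes, *Atp5mc1* took 26.3% ± 9.37 (SD, n = 4) at E18.5, 46.4% ± 1.95 in mice of 2 wks and 53.4% ± 1.43 in mice of 7 wks, and *Atp5mc3* 65.6% ± 12.8, 46.9% ± 1.66 and 39.5% ± 1.95. *Atp5mc2* stayed at 8.15% ± 3.57, 6.78% ± 0.363 and 7.05% ± 0.641. Within a library, the ratio of *Atp5mc3* to *Atp5mc1* was 1.36 to 5.62 at E18.5, 0.921 to 1.08 in mice of 2 wks and 0.667 to 0.793 in mice of 7 wks, with no overlap between ages. The mean log2 ratio fell by 1.36 to 2 wks and by 0.45 from 2 to 7 wks, each with p = 0.0286 in a two-sided exact permutation test, the smallest that 4 against 4 libraries can give (adjusted p = 0.0321 over 9 tests of 3 ratios). The log2 ratio of *Atp5mc2* to *Atp5mc1* fell by 1.001 to 2 wks (exact permutation p = 0.0286, adjusted 0.0321) and by 0.15 later (p = 0.114). A ratio within a library does not depend on how libraries are scaled to each other. *Atp5mc1* and *Atp5mc2* share 85.8% and 89.2% of their transcripts with nearly identical copies elsewhere in the genome, *Atp5mc3* 0%, and their GC contents are 56.5%, 56.6% and 51.5%, so reads lost to copies or to base composition would enter these ratios. Their part was not tested.

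**Figure D4:**
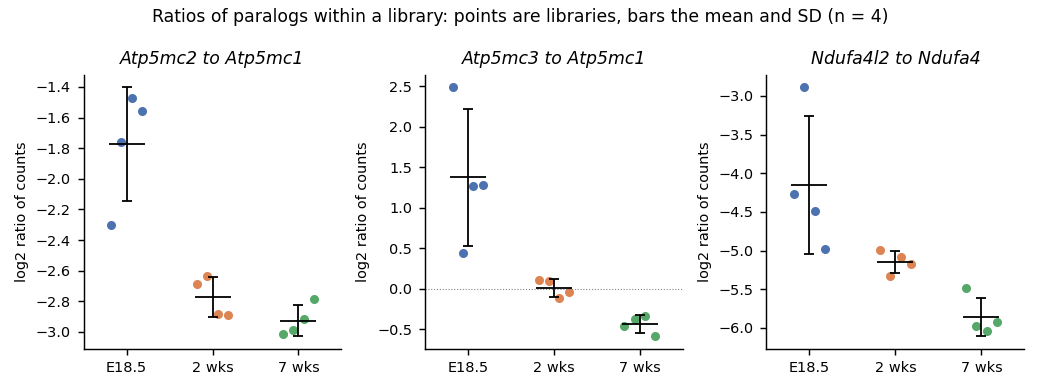
Log2 ratio of counts within a library for the 3 pairs of paralogs, with the 4 libraries of an age as points and the mean and SD as bars. The ratio of *Atp5mc3* to *Atp5mc1* falls at each step with no overlap, that of *Ndufa4l2* to *Ndufa4* likewise, and that of *Atp5mc2* to *Atp5mc1* overlaps between 2 and 7 wks.

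The promoters of the c subunit genes are shown because these genes encode the same mature protein and rose unequally, and that of *Atp5if1* because it did not rise. Each runs from 250 bases before to 50 bases after the RefSeq start on GRCm38.p6, 5′ to 3′, with matches to the motifs searched in capitals.
*Atp5mc1* (chr11:96075582-96075881, minus strand): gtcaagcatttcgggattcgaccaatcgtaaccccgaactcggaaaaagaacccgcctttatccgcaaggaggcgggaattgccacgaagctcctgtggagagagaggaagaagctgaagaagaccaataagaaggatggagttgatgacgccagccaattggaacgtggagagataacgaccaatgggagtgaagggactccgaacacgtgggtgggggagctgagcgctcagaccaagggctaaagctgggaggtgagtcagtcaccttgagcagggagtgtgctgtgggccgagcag
*Atp5mc2* (chr15:102670998-102671297, minus strand): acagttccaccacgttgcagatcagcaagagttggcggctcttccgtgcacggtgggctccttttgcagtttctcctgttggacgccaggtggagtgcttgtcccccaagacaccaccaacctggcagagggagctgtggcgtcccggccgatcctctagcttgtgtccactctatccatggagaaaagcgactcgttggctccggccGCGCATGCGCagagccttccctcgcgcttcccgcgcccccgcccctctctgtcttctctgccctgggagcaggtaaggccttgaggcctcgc
*Atp5mc3* (chr2:73911277-73911576, minus strand): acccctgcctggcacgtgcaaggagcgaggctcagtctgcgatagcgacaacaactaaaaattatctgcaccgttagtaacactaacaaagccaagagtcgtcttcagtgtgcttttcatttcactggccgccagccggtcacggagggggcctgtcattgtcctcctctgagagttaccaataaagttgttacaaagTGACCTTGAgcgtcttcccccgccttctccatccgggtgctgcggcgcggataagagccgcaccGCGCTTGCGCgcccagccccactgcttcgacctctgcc
*Atp5if1* (chr4:132535365-132535664, minus strand): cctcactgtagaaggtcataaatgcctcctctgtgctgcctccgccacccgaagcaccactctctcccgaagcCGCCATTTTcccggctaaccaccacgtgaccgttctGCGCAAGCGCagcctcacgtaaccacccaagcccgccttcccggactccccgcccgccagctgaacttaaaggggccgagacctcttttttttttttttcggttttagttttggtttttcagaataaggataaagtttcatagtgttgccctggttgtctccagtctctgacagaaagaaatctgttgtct
The motifs searched on both strands were those of nuclear respiratory factor 1 (NRF1, GCGCA and GCGC with any base between them), of oestrogen-related receptors (ERR, TNAAGGTCA), of YY1 (AANATGGCG) and of ETS factors such as GABPA (CCGGAAGT), all known regulators of mitochondrial genes. *Atp5mc1* held no match, *Atp5mc2* held NRF1, *Atp5mc3* held NRF1 and ERR, and *Atp5if1* held NRF1 and YY1. A promoter was found for 58 of the 71 symbols. Of these, 17 (29.3%) held the NRF1 letters, against 5.19% of 27025 genes with promoters of the same length, 11 (19.0%) YY1 against 2.76%, 4 (6.90%) ETS against 4.31% and 3 (5.17%) ERR against 1.43%. The median log2 change to 2 wks was 2.13 for the 17 genes with NRF1 and 2.27 for the 41 without, and 2.18 and 2.27 for the 11 with and 47 without YY1. A match in letters is a description of the sequence only.

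*Ndufa4* and *Ndufa4l2* encode paralogous small proteins, the latter known as a target of hypoxia signalling. *Ndufa4* was at 153, 151, 180 and 272 CPM at E18.5, at 659, 817, 653 and 816 CPM at 2 wks and at 653, 889, 1059 and 933 CPM at 7 wks, a rise of 1.96 ± 0.22 (SE) on the log2 scale without overlap (edgeR, adjusted p = 5.71e-06). *Ndufa4l2* was at 7.95, 20.5, 8.03 and 8.64 CPM, then at 20.7, 20.3, 19.2 and 22.5 CPM, and at 7 wks at 14.5, 14.1, 16.1 and 15.3 CPM. E18.5 library 2 lay among the 2 wks libraries, and the 7 wks libraries were all below those of 2 wks. Its rise to 2 wks was 0.87 ± 0.26 (edgeR, adjusted p = 0.0093), with values of 0.74 to 1.33 over the libraries left out in turn, but -0.05 with scaling to the total count and -0.29 with the GC trend removed. The log2 ratio of *Ndufa4l2* to *Ndufa4* fell by 0.99 to 2 wks and by 0.71 later, without overlap (two-sided exact permutation test, p = 0.0286, adjusted 0.0321). The gap in the first step was narrow. The ratio was 0.0318 to 0.135 at E18.5, highest in library 2, and 0.0248 to 0.0314 at 2 wks. Base composition could enter this ratio too, and its part was not tested.

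The size of the rise moved with the base composition of the transcripts. Across the 70 genes, Spearman's rho between the log2 change to 2 wks and GC content was 0.51, and it was 0.47 over the same 11832 genes. These genes share libraries and depth. The 23 genes of lowest GC content (40.8% to 48.6%) had a median change of 1.64 and the 23 of highest (54.1% to 62.8%) one of 2.94. The trend differed between libraries: over all those genes, log2 CPM changed per 10 points of GC content by -1.11, -0.09, -0.44 and -0.56 in E18.5 libraries 1 to 4, by 0.44, 0.38, 0.37 and 0.50 at 2 wks and by -0.17, 0.01, 0.45 and 0.22 at 7 wks, relative to each gene's mean over the 12. After removal of these trends, rho among the genes was 0.01, the groups of low and high GC content had medians of 2.01 and 2.15, and the median over all was 2.02. Then 67 genes rose and 1 (*Atp5if1*) fell, with 27.4% of all genes called higher and 38.9% lower, and *Atp5pd* (0.10, GC content 62.5%) and *Ndufa4l2* were not called. Among the named genes *Uqcrq* still had the largest value (4.65), while *Ndufs7* went from 4.38 to 3.13 and *Atp5mc1* from 3.42 to 2.56. Removing trends over transcript length in the same way left 65 that rose and 1 that fell, with a median of 1.46 and 25.6% of all genes called higher and 42.5% lower.

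**Figure D5:**
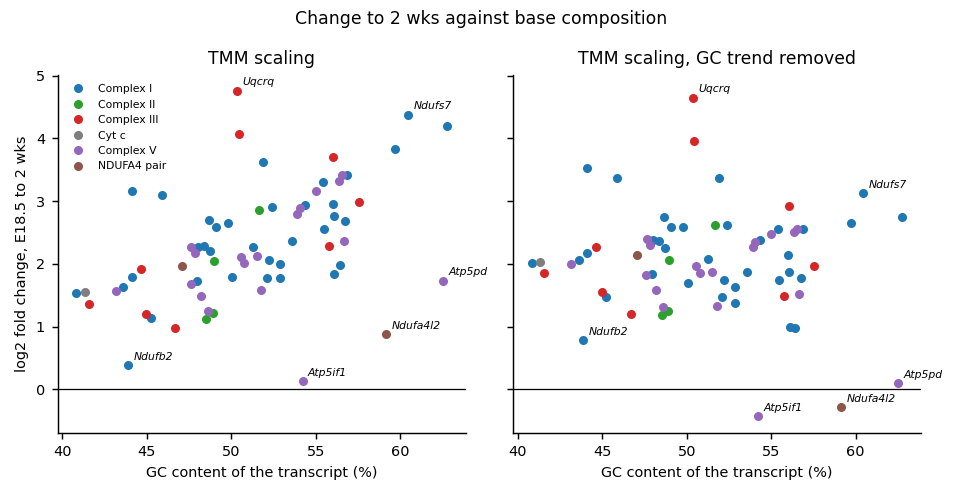
Change between E18.5 and 2 wks (log2) of 69 genes against the GC content of their transcripts, with TMM scaling (left) and after removal of the trend over GC content from every library (right), coloured by complex. The upward slope on the left is gone on the right, and most points stay between 1 and 3.

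The share of all counts on these genes needs no scaling factor. It was 1.35% to 2.31% at E18.5, 3.10% to 3.72% in mice of 2 wks and 2.40% to 3.51% in mice of 7 wks, with no overlap between E18.5 and the later ages. With scaling to the total count alone, 60 genes rose to 2 wks, 2 fell (*Atp5if1* and *Ndufb2*) and the median was 1.26, while the median over all genes was -1.02, with 13.2% called higher and 61.8% lower. The 8 genes then not called were *Ndufa4l2*, *Uqcrc2*, *Sdha*, *Ndufs1*, *Sdhd*, *Uqcrh* (0.29), *Atp5mj* (0.33) and *Uqcrb* (0.43). From 2 to 7 wks the median over the subunit genes was -0.38, as was that over all genes, and 10 of 70 were then lower and 0 higher, with 28.0% of all genes called lower. Mitochondrially encoded genes held a larger share of the counts at each later age, with medians of 5.46%, 9.11% and 15.7%.

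The subunits of the same complexes that are encoded in mitochondrial DNA took another course after 2 wks. Of 10 genes (*mt-Nd1* to *mt-Nd6*, *mt-Cytb*, *mt-Atp6* and *mt-Atp8*), 9 rose to 2 wks by edgeR (median log2 change 1.75), beside 31.5% of all genes. In the later interval 6 of the 10 rose (median 1.098), beside 13.5% of all genes. Of these, 5 rose in both intervals (*mt-Nd1*, *mt-Nd2*, *mt-Nd4*, *mt-Nd5* and *mt-Cytb*), and *mt-Nd3* was called in the later one only. *mt-Cytb*, cytochrome b of complex III, went from a mean of 5921 to 20297 and then 39183 CPM, and *mt-Nd1* from 3822 to 12563 and 26925 CPM. *mt-Nd3*, *mt-Nd4l*, *mt-Atp6* and *mt-Atp8* had means under 6 CPM at every age, far below their neighbours in the same genome, and their values are uncertain. Of these low genes, *mt-Nd4l*, *mt-Atp6* and *mt-Atp8* are among the 9 that rose first and *mt-Nd3* among the 6 that rose later. The libraries were made from polyadenylated RNA, and the difference between nuclear and mitochondrial genes was not tested.

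Assembly factors build the complexes without staying in them, and their medians were smaller than those of the subunits to 2 wks, a difference that was not tested. Of 31 such genes for complexes I, II, III and V, 25 rose and 0 fell to 2 wks (median log2 change 0.99, with 31.5% of all genes called higher). In the later interval 9 rose and 0 fell (median 0.33, with 13.5% of all genes called higher). At 7 wks 29 were higher than at E18.5, with 34.3% of all genes called higher. The largest first rises were those of *Uqcc2* (3.55) of complex III and *Fmc1* (3.43) of complex V, and the lowest values were those of *Atpaf2* (-0.19) and *Acad9* (0.20), both not called. The largest later rises were those of *Sdhaf3* (0.78) and *Ttc19* (0.75). In a list of 20 genes of mitochondrial import, membranes and mass, 16 rose and 2 fell to 2 wks. Of all genes, 31.5% were called higher and 34.2% lower. The rises were led by the muscle ADP/ATP carrier *Slc25a4* (3.49) and the carrier *Slc25a11* (2.26). The falls were those of the chaperone *Hspd1* (-1.03) and the receptor *Tomm70a* (-0.44). From 2 to 7 wks 3 rose (*Vdac3* 0.72, *Hspa9* 0.67 and *Vdac1* 0.62) and 1 fell, the ADP/ATP carrier *Slc25a5* (-1.03), against 13.5% and 13.9% of all genes called higher and lower, so the count of rises was near the share over all genes.

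Outside the group, the genes whose course over the 12 libraries was most like the mean course of complex I were *Cox6c*, *Chchd10*, *Cox7b*, *Cox5b* and *2310061I04Rik*, with Pearson's r of 0.994 to 0.996 among 4021 genes compared. *Cox6c*, *Cox7b* and *Cox5b* encode subunits of complex IV. These are descriptions over libraries of 3 ages that share the step at 2 wks.

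Several genes share sequence with other places. For 7 genes (*Ndufs3*, *Ndufs5*, *Uqcrb*, *Atp5mc1*, *Atp5mc2*, *Atp5mg* and *Atp5pd*) at least 50% of the transcript has a copy elsewhere in GRCm39 of at least 98% identity over 100 bases. Their median log2 change to 2 wks was 1.99, against 2.06 for 13 genes with a shorter copy and 2.27 for 50 with none. For 38 of the 70 genes at least 5% of the transcript lies antisense to another annotated exon, and for *Ndufb8* and *Atp5po* it overlaps one on the same strand, so values of these genes may include or lose reads of a neighbour.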

How the data were processed

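The authors deposited raw read counts per Ensembl gene for 12 libraries of TA muscle, 4 mice at each of 3 ages, prepared with the TruSeq Stranded mRNA kit. Per the submitters' processing notes, reads were handled with bcl2fastq 2.17.1.14, cutadapt 1.10, STAR 2.5.3a and HTSeq 0.6.1p1 on mm10, while the study's methods name GRCm39. Neither the annotation used for counting nor its strand setting is given in the sources used here, and the count table holds no coordinates.

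After TMM scaling and filterByExpr, the 12 libraries were fitted together in edgeR 4.0.16 (R 4.3.3), with age as the only term and quasi-likelihood tests, and p-values were adjusted by Benjamini-Hochberg over 19276 genes (threshold 0.05). SE is the log2 fold change divided by the square root of the F statistic. Ratios of paralogs were formed within a library with 0.5 count added and compared by two-sided exact permutation tests. Gene lengths, GC content, overlaps and near copies (blastn 2.17.0) were taken from the GENCODE vM39 annotation of GRCm39, and promoters from RefSeq on GRCm38.p6. CPM per kb uses the length of the annotated canonical transcript, so levels between genes are approximate. Trends over GC content or length were removed as lowess curves (span 0.3) passed to edgeR as offsets. Library totals were 63018968 to 123449246 counts. The biological coefficient of variation was 0.279, so the spread between libraries, not counting error, set the precision. Differences between mice and between library preparations cannot be told apart in that spread. Replicate pairs differed by more than sampling noise (chi-square per degree of freedom 31.2 to 524 in 18 pairs).

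The genes, lists of assembly factors, import genes and markers, the motifs and the rule for naming genes were chosen with earlier results of these data known. The genes given in full are, by complex, the extremes of change in either interval among called genes whose ages did not overlap, the 3 pairs of paralogs and *Atp5if1*, while 1 gene that enters the counts is not reported here, and *Ndufb2*, *Sdha* and others given with values were added after values were seen. Alternatives were total-count and upper-quartile scaling, TMM without mitochondrially encoded and the 20 top genes, no filter, a minimum of 10 counts everywhere, DESeq2 1.42.0, a replicate block, only the 8 libraries compared, removal of trends over GC content and length, 1 count added in ratios, and each library left out. Leaving out E18.5 libraries 3 and 4 together was added after seeing the data. On simulated counts for the comparison of E18.5 and 2 wks, 200 genes were changed 2-fold at a dispersion of 0.05. Of these edgeR recovered 153 with 6 false calls among 18872 genes, and DESeq2 159 with 25. That dispersion was below that of the data, and far fewer genes were changed than were called in the data. With a GC trend added at the later ages and left in, edgeR made 1061 false calls among 18801 genes. After removal of that trend it made 7. The added trend was the same in all later libraries, while in the data trends also differed between libraries of an age. It was also weaker than the difference in trend between most E18.5 libraries and those of 2 wks.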

Additional observations from a re-analysis of the deposited data

Results flagged for a closer look

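In 11 of 210 sets of 4 libraries (70 genes at 3 ages) 1 library lay far from the other 3 by Dixon's test, and chance alone puts about 1 in 20 sets there. At 2 wks it was library 4 each time, high in *Uqcrq* (497 CPM against 264 to 292), *Ndufs7* (371 against 226 to 245), *Ndufb11* (346 against 290 to 299), *Ndufb8* (258 against 163 to 176), *Atp5po* (240 against 171 to 178), *Ndufa12* (230 against 167 to 172), *Ndufa6* (211 against 144 to 154) and *Ndufb6* (181 against 122 to 131). At E18.5 it was library 4, high in *Ndufb10* (83.7 CPM against 60.2 to 62.97) and *Ndufb4* (14.8 against 9.39 to 9.71), and library 2, high in *Ndufa4l2* (20.5 against 7.95 to 8.64).

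The change to 2 wks minus the change from 2 to 7 wks was positive in all 70 genes tested, and edgeR's test of this difference called 65 of them (21.6% of all genes in that direction). On the log2 scale it was 5.53 for *Uqcrq*, 4.72 for *Ndufs7*, 3.39 for *Atp5mc1*, 2.91 for *Sdhb*, 2.54 for *Atp5mc3*, 2.47 for *Atp5mc2*, 1.70 for *Ndufa4*, 1.37 for *Atp5mj*, 1.33 for *Ndufa4l2* and 0.93 for *Ndufb2*. The call for *Ndufb2* rests on a rise and a fall that were each not called.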

How the results depend on the processing

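The counts of genes changed to 2 wks (68) and between E18.5 and 7 wks (68) and of genes whose change differed between the intervals (65) stayed within a factor of 1.5 under every alternative run, and leaving out each library in turn gave 68 to 69, 67 to 68 and 60 to 68. The count from 2 to 7 wks (1) was 10 with total-count scaling, 6 with the length trend removed, 5 with only the 8 libraries compared, 3 with upper-quartile scaling, DESeq2, a minimum of 10 counts, the GC trend removed or without E18.5 libraries 3 and 4, and 0 to 4 with a library left out. It was 0 without 2 wks library 1 or 2 or 7 wks library 1, 2 or 4. The median change to 2 wks was 1.26 with total-count scaling, 1.46 with the length trend removed and 2.08 to 2.35 with a library left out, and the later median was -0.38 with total-count scaling and -0.14 to 0.11 with a library left out.

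The direction of the change to 2 wks turned for *Atp5if1* with total-count scaling (-0.80), the length trend removed (-0.79), the GC trend removed (-0.43), without E18.5 libraries 3 and 4 (-0.044) and with upper-quartile scaling (-0.0075), for *Ndufb2* with total-count scaling (-0.55), and for *Ndufa4l2* with the GC trend removed (-0.29) and total-count scaling (-0.052). Between E18.5 and 7 wks it turned for *Ndufa4l2* with total-count scaling (-0.86), the GC trend removed (-0.44) and the length trend removed (-0.37), and for *Ndufb2* with the GC trend removed (0.036). The cause was not tested.

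Replicate numbers did not pair the libraries: deviations of libraries with the same number at different ages correlated at -0.28 to 0.51 over 12 pairs, and those with different numbers at -0.50 to 0.38. With a replicate block, 2 genes (*Atp5if1* and *Atp5po*) were called from 2 to 7 wks. In ratios a replicate block cannot give a p below 0.125, and the differences of -1.001, -1.15, -1.36, -0.45, -1.81, -0.99, -0.71 and -1.71 were then not called. A test with a library left out cannot go below 0.0571 and one without E18.5 libraries 3 and 4 not below 0.133. Without them the changes from E18.5 to 2 and 7 wks were -0.74 and -0.90 (*Atp5mc2* to *Atp5mc1*), -1.45 and -1.91 (*Atp5mc3* to *Atp5mc1*) and -1.57 and -2.28 (*Ndufa4l2* to *Ndufa4*). With a library left out they were -1.18 to -0.90 and -1.33 to -1.05, -1.67 to -0.99 and -2.12 to -1.44, and -1.27 to -0.57 and -1.98 to -1.28. From 2 to 7 wks they were -0.20 to -0.11, -0.50 to -0.40 and -0.83 to -0.65.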
